A study of Homo sapiens with 12 samples.

Results

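The nuclear genes for the subunits of respiratory complexes II, III, IV and V, together with cytochrome c, were examined in RNA-seq libraries of 12Z cells. The set held 40 genes, picked by their symbols from the 60617 gene identifiers in the count files. The set was chosen with earlier results of these data known. It had 4 genes of complex II, 9 of complex III, the gene of cytochrome c, 11 of complex IV and 15 of complex V. Each symbol matched 1 identifier, and all 40 passed the filter on low counts that left 22756 genes for testing. 12Z is an immortalized epithelial line that was established from endometriosis, in which tissue like the uterine lining grows elsewhere. Every culture had first been given non-targeting siRNA, so the comparisons concern the plasmid and insulin only. Cells called H1047R were transfected with pBabe carrying PIK3CA with the H1047R change, which activates the kinase p110α, and control cells with empty pBabe. After 4 h without serum, insulin at 100 nM or vehicle was given for 24 h. The 4 groups were therefore H1047R insulin, H1047R vehicle, control insulin and control vehicle, each with 3 libraries from independent experiments. Transfection was transient and no selection is described, so a library can hold RNA of cells with and without the plasmid, and the native PIK3CA gene is still present.

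Complexes II to IV carry electrons along the inner mitochondrial membrane, and complex V uses the proton gradient that results. Complex II, succinate dehydrogenase, links the tricarboxylic acid (TCA) cycle to this chain and pumps no protons. Complex III hands electrons to cytochrome c, a small soluble carrier which also takes part in apoptosis, and complex IV passes them from cytochrome c to oxygen. Complex V, the ATP synthase, lets protons flow back through a membrane rotor and makes ATP in its catalytic head. Complex II is built from nuclear gene products alone, while the other complexes named here combine nuclear subunits with a few encoded by mitochondrial DNA. PI3K and AKT signaling downstream of insulin is known for its control of glucose uptake and glycolysis.

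Gene counts per library were 30071951 to 37918025 in H1047R insulin and 21483124 to 29255708 in the other groups. Levels are given as CPM (counts of a gene relative to the total of its library) with TMM factors, which adjust each library for its composition, and differences as log2 fold changes ± SE from edgeR. The marker sums, the cut at 1 CPM for markers and the levels of SDHA pseudogenes are in CPM without TMM factors. A gene was called at a Benjamini-Hochberg false discovery rate (FDR) below 0.001 over all 22756 genes. The transfected gene, PIK3CA, was at 734, 714 and 715 CPM in H1047R insulin, 312, 180.1 and 215 CPM in H1047R vehicle, 81.1, 85.9 and 80.9 CPM in control insulin and 89.0, 88.2 and 88.7 CPM in control vehicle. Its counts cannot separate plasmid from native transcripts. H1047R libraries thus held more PIK3CA than control libraries, and H1047R insulin held 3.06 times the level of H1047R vehicle, so insulin and a higher PIK3CA level cannot be told apart in that comparison. Of 6 epithelial markers 5 averaged at least 1 CPM, as did all 5 stromal fibroblast markers, 2 of 3 endothelial markers and 0 of 4 leukocyte markers. The epithelial sum was 3326 to 3363 CPM in H1047R insulin and 2893 to 3244 CPM in the other groups. It came almost wholly from keratins, since EPCAM averaged 0.442 CPM in H1047R insulin and 0.434 CPM in H1047R vehicle, and CDH1 1.23 CPM in H1047R insulin and 1.66 CPM in H1047R vehicle. With insulin in H1047R cells KRT19 rose (log2 fold change 0.24) and KRT7 fell (-0.30). The stromal sum was 4684 to 4856 CPM in H1047R insulin and 5165 to 5483 CPM in the other groups. In the same comparison VIM rose (0.17), and DCN (-3.07), COL1A1 (-0.50), PDGFRB (-0.48) and THY1 (-0.20) fell. The endothelial sum was 5.04 to 5.32 CPM in H1047R insulin and 2.59 to 4.59 CPM in the other groups, and VWF rose with insulin in H1047R cells (0.92). The part of these shifts in the results was not tested. Reads placed at several sites, which are not in the gene counts, were 8.48 to 9.51% of reads in H1047R insulin and 13.6 to 15.4% in the other groups.

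In H1047R cells, insulin lowered the RNA of 23 of the 40 genes and raised 1, CYCS, while 16 did not pass the test. Over all genes tested, 9.8% were called lower and 9.85% higher in this comparison. Of the 10784 genes averaging at least 5 CPM, the range in which all 40 lie, 18.8% were called lower. The median log2 fold change of the 40 was -0.27, against a median of -0.00061 over all genes tested. Libraries of H1047R insulin and H1047R vehicle did not overlap, with H1047R insulin lower, for 31 of the 40 genes (22.2% of all genes tested) and with H1047R insulin higher for 2 (22.7%). The falls were modest: among the 23 called genes the log2 fold change ran from -0.52 for ATP5MF to -0.20 for ATP5PF. Fewer copies of these transcripts per cell, fewer cells that express them and more RNA of other genes cannot be told apart here. The libraries are of bulk RNA, and CPM are relative to the library total.

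**Figure D1:**
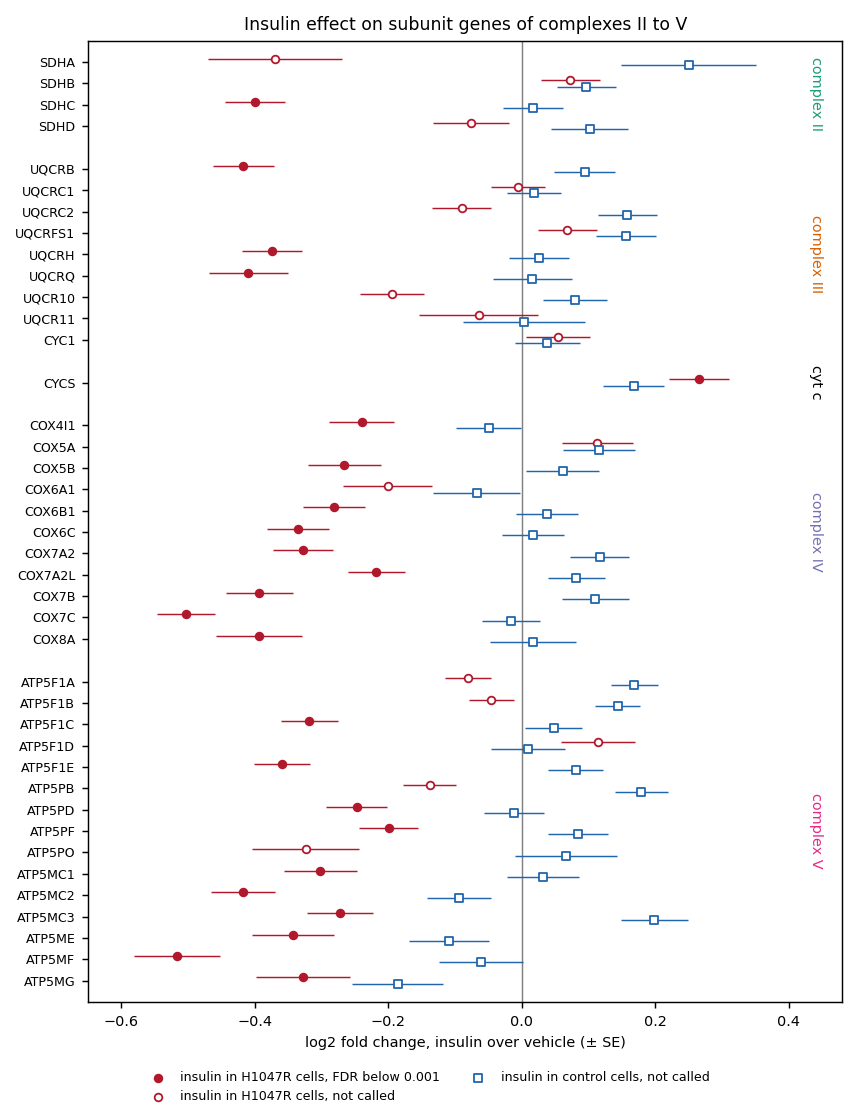
Log2 fold change of insulin over vehicle (x axis, ± SE) for each of the 40 genes (y axis, grouped by complex), in H1047R cells (red circles, filled where the FDR was below 0.001) and in control cells (blue squares). In H1047R cells 23 genes fell and CYCS rose, and no gene was called in control cells, where values run from -0.19 to 0.25.

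Complex II has a pair of hydrophilic subunits, SDHA with the flavin and SDHB with the iron-sulfur clusters, and a pair of membrane anchors, SDHC and SDHD. Only SDHC was called with insulin in H1047R cells. SDHC (chromosome 1, 161314381 to 161363206 in hg38, as are the positions that follow) was at 70.0, 74.9 and 75.1 CPM in H1047R insulin, against 95.6, 96.1 and 98.7 CPM in H1047R vehicle, and at 91.6, 97.2 and 101 CPM in control insulin, against 95.4, 93.7 and 97.3 CPM in control vehicle. Every H1047R insulin library lay below all 9 others, and the other 3 groups overlapped (log2 fold change for insulin in H1047R cells -0.40 ± 0.0447, adjusted p = 1.3e-09, and in control cells 0.02 ± 0.0446, adjusted p = 0.914). SDHB had the smallest change of the complex: it was at 102, 99.6 and 97.3 CPM in H1047R insulin, against 98.5, 96.0 and 89.5 CPM in H1047R vehicle, and at 97.4, 102 and 96.0 CPM in control insulin, against 94.6, 92.1 and 89.5 CPM in control vehicle. Its H1047R groups overlapped (0.07 ± 0.0442, adjusted p = 0.224). SDHD, at 54.3 ± 2.88 CPM in H1047R insulin and 57.3 ± 1.37 CPM in H1047R vehicle (SD, n = 3 each), did not pass the test either (-0.08 ± 0.0576, adjusted p = 0.345).

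SDHA was the least abundant of the 40 genes in counts, at 5.91, 5.89 and 5.96 CPM in H1047R insulin, against 7.28, 7.48 and 8.2 CPM in H1047R vehicle, and at 7.45, 7.67 and 8.6 CPM in control insulin, against 7.08, 6.82 and 5.93 CPM in control vehicle. The H1047R groups did not overlap, yet the difference was not called (-0.37 ± 0.0999, adjusted p = 0.00292). Its interaction, that is, the insulin effect in H1047R cells minus that in control cells, was the largest of the set (-0.62 ± 0.142, adjusted p = 0.000993). The SDHA counts cover part of the gene only: a readthrough transcript on the same strand overlaps 69.4% of its main transcript, and reads that fit both genes are not counted. Among the annotated pseudogenes of SDHA, SDHAP4 and SDHAP1 held more counts than SDHA itself. SDHAP4 averaged 22.8 CPM in H1047R insulin and 24.4 CPM in H1047R vehicle and was not called (log2 fold change -0.13, adjusted p = 0.122), nor was SDHAP3 (-0.15, adjusted p = 0.483), while SDHAP1 averaged 16.9 CPM in H1047R insulin and 11.7 CPM in H1047R vehicle, a rise (0.50, adjusted p = 3.6e-06). The SDHA value is therefore uncertain, and its interaction call was lost under 17 alternative settings, with adjusted p from 0.00102 to 0.00562.

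In complex III the genes that fell were 3 of the 5 small subunits, and none of the 4 core and electron-carrying ones was called. UQCRC1 and UQCRC2 form the core, and UQCRFS1 (the Rieske iron-sulfur protein) and CYC1 (cytochrome c1) carry electrons. These 4 had no call in edgeR (1 was lower at an unadjusted p below 0.05) or in DESeq2, and their median log2 fold change was 0.02. Of the 5 small subunits UQCRB, UQCRH, UQCRQ, UQCR10 and UQCR11, 3 were called lower, with a median of -0.37. UQCRB, which lies near the quinone-binding region, was at 198, 189 and 176 CPM in H1047R insulin, against 234, 257 and 259.9 CPM in H1047R vehicle, and at 287, 269.9 and 294 CPM in control insulin, against 268, 276 and 253 CPM in control vehicle. All 3 H1047R insulin libraries were below the other 9, and H1047R vehicle and control vehicle overlapped (-0.42 ± 0.0454, adjusted p = 6.49e-10).

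UQCRQ was at 121, 135 and 122 CPM in H1047R insulin, against 157, 193 and 153 CPM in H1047R vehicle, and at 153, 164 and 177 CPM in control insulin, against 166, 152 and 172 CPM in control vehicle. Its second H1047R vehicle library stood above the other 2 of its group, and H1047R insulin remained below every library of the other groups (-0.41 ± 0.0592, adjusted p = 3.34e-07). UQCRH, the hinge protein that contacts cytochrome c1, was at 88.3, 85.3 and 92.8 CPM in H1047R insulin, against 114, 116 and 115 CPM in H1047R vehicle, and at 116, 126 and 122 CPM in control insulin, against 125, 120.1 and 112 CPM in control vehicle. The H1047R insulin values again lay under all others (-0.37 ± 0.0452, adjusted p = 7.46e-09). UQCR10 did not overlap between the H1047R groups, at 60.7 ± 1.92 CPM in H1047R insulin and 69.5 ± 3.09 CPM in H1047R vehicle (SD, n = 3 each), and just missed the threshold (-0.19 ± 0.048, adjusted p = 0.00115).

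UQCRC1 had the smallest change of the complex, at 168, 174 and 177 CPM in H1047R insulin, against 180.5, 170.1 and 170.5 CPM in H1047R vehicle, and at 169, 181 and 186 CPM in control insulin, against 177, 176 and 177 CPM in control vehicle. All 4 groups overlapped, and the log2 fold change for insulin in H1047R cells was -0.01 ± 0.0408, adjusted p = 0.935. Values for UQCRC2, UQCRFS1, CYC1 and UQCR11 were -0.09 ± 0.0441, 0.07 ± 0.0447, 0.05 ± 0.048 and -0.07 ± 0.0891 on the log2 scale, with adjusted p of 0.116, 0.264, 0.441 and 0.643. Whether the core and the small subunits differ from each other in their response was not tested, since the split was made with the values known.

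CYCS, which encodes cytochrome c (chromosome 7, 25118656 to 25125260), was the single gene to rise. It was at 256, 249.7 and 259 CPM in H1047R insulin, against 208, 205 and 223 CPM in H1047R vehicle, and at 247, 255 and 251 CPM in control insulin, against 242, 227 and 202 CPM in control vehicle. The H1047R insulin libraries lay above those of H1047R vehicle, and control insulin above control vehicle, while H1047R insulin and control insulin overlapped. The rise was called in H1047R cells (0.27 ± 0.0451, adjusted p = 6.84e-06) and not in control cells (0.17 ± 0.0453, adjusted p = 0.0182), and the difference between the effects did not pass the test (0.10 ± 0.0639, adjusted p = 0.324).

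**Figure D2:**
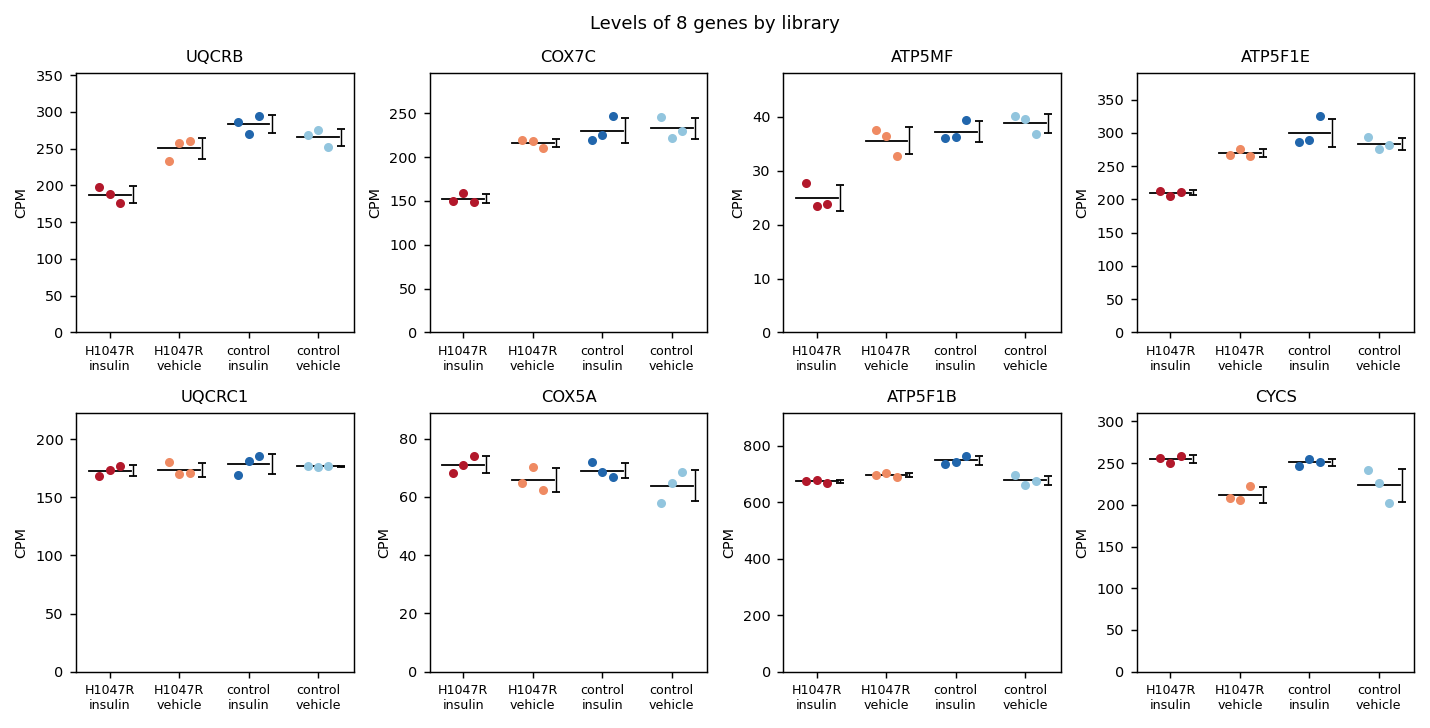
Level in CPM (y axis, from 0) of 8 genes in every library (points), by group from H1047R insulin to control vehicle (x axis), with group means (lines) and SD (bars, n = 3). UQCRB, COX7C, ATP5MF and ATP5F1E were lower in H1047R insulin than in any other library, UQCRC1 and COX5A overlapped across groups, ATP5F1B was higher in control insulin than in the other groups, and the CYCS libraries with insulin lay above those with vehicle in each background.

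Complex IV had the highest share of falling genes, 9 of 11, with a median log2 fold change of -0.28. All of its nuclear products are supernumerary subunits around a catalytic core that mitochondrial DNA encodes, and COX7A2L is better known for joining complexes III and IV into supercomplexes. COX7C (chromosome 5, 86617928 to 86620962) was at 149.8, 159 and 149 CPM in H1047R insulin, against 219.6, 218 and 211 CPM in H1047R vehicle, and at 219, 225 and 246 CPM in control insulin, against 246, 222 and 229.7 CPM in control vehicle. The H1047R insulin libraries were far below the rest, and H1047R vehicle lay just under control vehicle without overlap (-0.50 ± 0.044, adjusted p = 2.23e-12 for insulin in H1047R cells, -0.11 ± 0.0438, adjusted p = 0.293 for H1047R with vehicle). COX7B was at 109, 109.6 and 103 CPM in H1047R insulin, against 130.5, 156 and 135 CPM in H1047R vehicle, and at 154, 137 and 153 CPM in control insulin, against 137, 138 and 136 CPM in control vehicle. The H1047R insulin values were below all others, and the second H1047R vehicle library was the highest of all 12 (-0.39 ± 0.0507, adjusted p = 3.27e-08).

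COX8A was at 27.0, 25.7 and 27.8 CPM in H1047R insulin, against 37.9, 36.2 and 31.6 CPM in H1047R vehicle, and at 33.7, 32.5 and 36.4 CPM in control insulin, against 36.9, 31.9 and 32.6 CPM in control vehicle. Its H1047R insulin libraries lay below every other library (-0.39 ± 0.0646, adjusted p = 3.62e-06). COX7A2, another small membrane subunit, was at 91.0, 90.9 and 98.0 CPM in H1047R insulin, against 117, 117 and 118 CPM in H1047R vehicle, and at 136, 134 and 136 CPM in control insulin, against 125, 133 and 116 CPM in control vehicle. Here control insulin lay above control vehicle without overlap, a difference that was not called (0.12 ± 0.0446, adjusted p = 0.137), and H1047R insulin below all others, a difference from H1047R vehicle that was (-0.33 ± 0.0451, adjusted p = 1.19e-07).

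The other called genes of complex IV were COX6C, COX6B1, COX5B, COX4I1 and COX7A2L. COX6C was at 107 ± 3.74 CPM in H1047R insulin and 135 ± 7.9 CPM in H1047R vehicle (SD, n = 3 each, as in the values that follow). COX6B1, which helps to join a pair of complex IV monomers, was at 127 ± 5.46 CPM in H1047R insulin and 155 ± 8.33 CPM in H1047R vehicle. Their log2 fold changes were -0.34 ± 0.0463, adjusted p = 1.3e-07 and -0.28 ± 0.0467, adjusted p = 4.28e-06. COX5B, COX4I1 and COX7A2L had log2 fold changes of -0.27 ± 0.0552, -0.24 ± 0.0487 and -0.22 ± 0.0426, with adjusted p of 0.000142, 0.0001 and 5.97e-05. COX6A1 separated without overlap but was not called (-0.20 ± 0.0667, adjusted p = 0.016).

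COX5A, of the subunits of complex IV, was the one whose fitted change was above 0. It was at 68.3, 70.9 and 74.1 CPM in H1047R insulin, against 64.7, 70.2 and 62.3 CPM in H1047R vehicle, and at 71.9, 68.4 and 66.8 CPM in control insulin, against 58.0, 64.7 and 68.7 CPM in control vehicle. All 4 groups overlapped (0.11 ± 0.053, adjusted p = 0.101). COX4I1 and COX5A have their places side by side in the early assembly of the enzyme, and their mean levels in H1047R insulin as a ratio to H1047R vehicle were 0.847 and 1.08 in the fit.

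Complex V had 10 of 15 genes called lower, with a median of -0.30. By role, all 3 genes of the membrane rotor (c-ring: ATP5MC1, ATP5MC2 and ATP5MC3) and all 3 accessory membrane subunits (e, f and g: ATP5ME, ATP5MF and ATP5MG) fell, with medians of -0.30 and -0.34. Of the peripheral stalk, which holds the head still, 2 of 4 fell (ATP5PD and ATP5PF, median of the 4 -0.22). In the catalytic head, 2 of 5 fell (ATP5F1C and ATP5F1E, median of the 5 -0.08), while ATP5F1A and ATP5F1B, which form the catalytic ring, and ATP5F1D did not pass the test. The 3 c-ring genes encode the same mature protein, with different targeting sequences, so they are separate sources of 1 subunit.

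ATP5MF, subunit f (chromosome 7, 99448475 to 99466186), had the largest fall of the 40 genes. It was at 27.7, 23.4 and 23.8 CPM in H1047R insulin, against 37.5, 36.5 and 32.7 CPM in H1047R vehicle, and at 36.0, 36.3 and 39.5 CPM in control insulin, against 40.1, 39.6 and 36.7 CPM in control vehicle. The H1047R insulin libraries lay well below the rest, and the other 3 groups overlapped (-0.52 ± 0.0642, adjusted p = 1.44e-08). Readthrough transcripts with PTCD1 overlap 37.2% of its main transcript on the same strand, so its counts come from the remainder.

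ATP5MC2 was at 109.9, 111 and 111 CPM in H1047R insulin, against 146, 159 and 138 CPM in H1047R vehicle, and at 131, 137 and 151 CPM in control insulin, against 155, 145 and 148 CPM in control vehicle. The 3 H1047R insulin libraries were nearly equal and below all others (-0.42 ± 0.048, adjusted p = 2.37e-09). ATP5F1E, the epsilon subunit of the rotor stem, was at 213, 205 and 211 CPM in H1047R insulin, against 266, 276 and 266 CPM in H1047R vehicle, and at 286, 289 and 325 CPM in control insulin, against 293, 276 and 282 CPM in control vehicle. Again H1047R insulin lay under every other library (-0.36 ± 0.0418, adjusted p = 3.38e-09). ATP5MC3 was at 153, 143 and 149 CPM in H1047R insulin, against 188, 181 and 168 CPM in H1047R vehicle, and at 183, 183 and 187 CPM in control insulin, against 177, 143 and 161 CPM in control vehicle. Its H1047R insulin libraries were below those of H1047R vehicle and of control insulin, but overlapped control vehicle, where the second library was low (-0.27 ± 0.0499, adjusted p = 2.26e-05).

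ATP5F1B, the catalytic beta subunit, had the smallest change of the complex although it was the most abundant of the 40 genes in counts, at 675, 677 and 668 CPM in H1047R insulin, against 694, 703 and 689 CPM in H1047R vehicle, and at 736, 742 and 764 CPM in control insulin, against 695, 662 and 673 CPM in control vehicle. H1047R insulin lay slightly below H1047R vehicle without overlap, and control insulin above every other library, but neither insulin effect was called (-0.05 ± 0.0338, adjusted p = 0.331 in H1047R cells and 0.14 ± 0.0338, adjusted p = 0.00536 in control cells). ATP5F1A had the same order of group means, at 452 ± 10.5 CPM in H1047R insulin, 478 ± 5.77 CPM in H1047R vehicle, 520.1 ± 7.22 CPM in control insulin and 463 ± 7.68 CPM in control vehicle (SD, n = 3 each). ATP5PO, the stalk protein also known as OSCP, was at 11.8, 13.1 and 14.0 CPM in H1047R insulin, against 15.7, 16.3 and 16.9 CPM in H1047R vehicle, and at 18.4, 18.3 and 20.96 CPM in control insulin, against 18.8, 19.7 and 16.2 CPM in control vehicle. It separated without overlap from all other libraries and still just missed the threshold (-0.32 ± 0.0801, adjusted p = 0.00119). A transcript on the same strand overlaps 63.8% of its main transcript, and its counts come from the rest.

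The remaining called genes of complex V were ATP5MC1, ATP5ME, ATP5MG, ATP5F1C, ATP5PD and ATP5PF, with log2 fold changes of -0.30, -0.34, -0.33, -0.32, -0.25 and -0.20 and adjusted p from 7.25e-08 to 0.000345. ATP5PB, the b subunit of the stalk, at -0.14 ± 0.0397 (adjusted p = 0.00528), and ATP5F1D, at 0.11 ± 0.0553 (adjusted p = 0.114), were not called.

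Summed over genes, the 40 took 0.479% ± 0.00302 of gene counts in H1047R insulin and 0.534% ± 0.00871 in H1047R vehicle, against 0.57% ± 0.0167 in control insulin and 0.537% ± 0.0104 in control vehicle (SD, n = 3 each). Complex IV held 0.105%, 0.107% and 0.104% in H1047R insulin and 0.126%, 0.131% and 0.124% in H1047R vehicle, a ratio of means of 0.829. Complex V held 0.235%, 0.234% and 0.233% in H1047R insulin and 0.262%, 0.262% and 0.253% in H1047R vehicle, a ratio of 0.905. The libraries of these groups did not overlap for either complex. Ratios for complexes III and II were 0.884 and 0.930, and that of CYCS was 1.23. In control cells the ratio of control insulin to control vehicle was above 1 for each: 1.06 for complex II, 1.05 for complex III, 1.03 for complex IV and 1.08 for complex V. These sums weigh abundant genes most, so complex V, whose most abundant genes are ATP5F1A and ATP5F1B, moved less in its sum than in its median gene. No test was made on the sums.

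**Figure D3:**
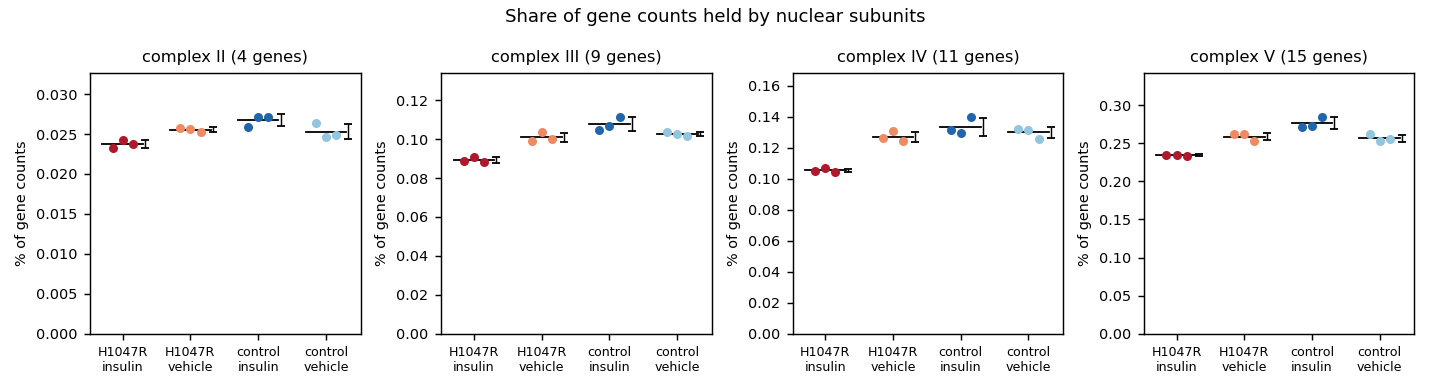
Percent of gene counts (y axis, from 0) held by the nuclear subunits of each complex in every library (points), by group from H1047R insulin to control vehicle (x axis), with means (lines) and SD (bars, n = 3). In each panel the 3 H1047R insulin libraries sit below the 9 others, with means of 0.105% for complex IV and 0.234% for complex V, and control insulin has the highest mean.

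In control cells insulin changed none of the 40 genes at the threshold (0 higher and 0 lower), where 0.483% of all genes tested were called higher and 1.15% lower. The median log2 fold change of the 40 was 0.05, and 32 of the 40 values were above 0. At an unadjusted p below 0.05 edgeR gave 13 higher and 1 lower, at an FDR below 0.05 it gave 7 higher and 0 lower, and DESeq2 called 3 higher at the FDR below 0.001. The values nearest to a call were ATP5F1A (0.17 ± 0.0348, adjusted p = 0.00125), ATP5PB (0.18 ± 0.0397, adjusted p = 0.00285), ATP5F1B (0.14 ± 0.0338, adjusted p = 0.00536) and ATP5MC3 (0.20 ± 0.05, adjusted p = 0.00998). For each of these genes all 3 control insulin libraries lay above the control vehicle libraries, which was so for 11 of the 40 genes (10.3% of all genes tested).

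With vehicle, the plasmid made no difference that was called in these genes (0 higher and 0 lower, with 0.141% of all genes tested called higher and 0.0176% lower). An unadjusted p below 0.05 was found for 1 gene in the higher direction and 7 in the lower, and DESeq2 called 0 in either direction. The median log2 fold change was -0.03. The largest difference was that of ATP5MG (-0.26 ± 0.07, adjusted p = 0.0555), which was at 21.6, 25.5 and 24.2 CPM in H1047R vehicle and 28.1, 30.6 and 26.4 CPM in control vehicle.

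When both backgrounds had insulin, H1047R insulin was lower than control insulin for 31 of the 40 genes and higher for 0, against 12% and 11.4% of all genes tested. Of the genes averaging at least 5 CPM, 22.8% were called lower and 19.5% higher. At an unadjusted p below 0.05 edgeR also gave 0 genes in the higher direction, as DESeq2 did at the FDR below 0.001. The median was -0.34, and -0.02 over all genes tested. By complex the counts were 3 of 4 in complex II, 4 of 9 in complex III, 10 of 11 in complex IV and 14 of 15 in complex V. The largest differences were those of UQCRB (-0.60 ± 0.0452, adjusted p = 2.85e-14), COX7C (-0.59 ± 0.0438, adjusted p = 1.36e-14), ATP5MF (-0.58 ± 0.0632, adjusted p = 4.3e-10) and ATP5PO (-0.56 ± 0.0772, adjusted p = 9.94e-08). All 23 genes that fell with insulin in H1047R cells were among these 31. Both comparisons use the same H1047R insulin libraries, so this count is no independent support. The 8 genes called only here were ATP5F1A, ATP5F1B, ATP5PB, ATP5PO, COX6A1, SDHA, SDHD and UQCR10. CYCS did not differ beyond its spread (0.02 ± 0.0448, adjusted p = 0.745).

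The interaction was called for 20 of the 40 genes, each with a more negative insulin effect in H1047R cells. It was called for 0 genes in the other direction (0 at an unadjusted p below 0.05 and 0 with DESeq2). Over all genes tested 4.49% were called in the first direction and 4.58% in the other, and of the genes averaging at least 5 CPM 8.87% were called in the first. PIK3CA itself had an interaction of 1.72 ± 0.123 (adjusted p = 3.81e-14). A changed response to insulin and the higher PIK3CA level in H1047R insulin thus cannot be told apart in these interactions. The counts by complex were 2 of 4, 3 of 9, 7 of 11 and 8 of 15 for complexes II to V. After SDHA, the values furthest from 0 were those of UQCRB (-0.51 ± 0.0639, adjusted p = 5.25e-08), COX7B (-0.50 ± 0.0716, adjusted p = 7.27e-07), COX7C (-0.49 ± 0.0619, adjusted p = 7.25e-08) and ATP5MC3 (-0.47 ± 0.0706, adjusted p = 1.96e-06). The count depends on single libraries: it was 13 without the third control insulin library, 13 without the second H1047R vehicle library and 13 without the third H1047R insulin library. Of the 40 genes, 8 were called in none of the 5 comparisons: ATP5F1D, COX5A, CYC1, SDHB, UQCR11, UQCRC1, UQCRC2 and UQCRFS1.

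The genes that fell were mostly short. The coding sequences of the 40 run from 153 to 1992 nucleotides. Among the 23 with a coding length below 450 nucleotides, a split chosen after the values were seen, 19 fell with insulin in H1047R cells and 1 rose, with a median of -0.33. Among the 17 longer ones 4 fell, with a median of -0.08. The part of coding length in the differences between subunit roles of complexes III and V was not tested. Across the 40 genes, which share libraries and are not independent, the log2 fold change and the log2 coding length had r = 0.42 (Spearman's rho 0.46), and the log2 mean CPM had r = 0.08 (rho -0.02). Other short protein-coding genes also leaned down: 215 of 985 (21.8%) below 450 nucleotides were called lower and 63 higher, with a median of -0.14, whereas 13.4% of 13839 longer ones were called lower, with a median of 0.02. Genes of complex I and of ribosomal proteins were not left out of these other genes. With a trend in transcript length removed from every library, 25 of the 40 genes were called lower and 1 higher, with a median of -0.26. The median over all genes in that fit was -0.04. Transcript length includes untranslated parts, so this fit does not address a trend in coding length, which was not removed.

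**Figure D4:**
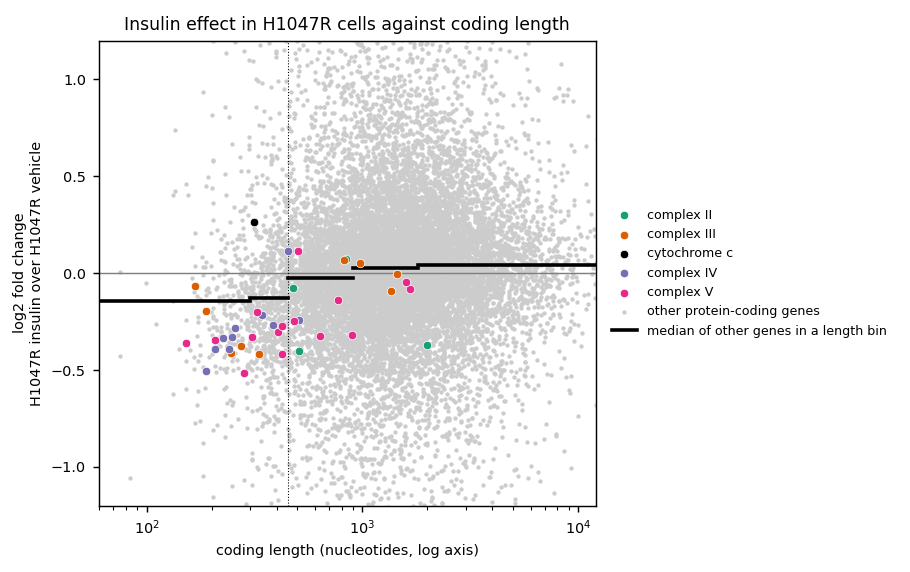
Log2 fold change of H1047R insulin over H1047R vehicle (y axis, shown from -1.2 to 1.2) against coding length (x axis, nucleotides, log axis) for the 40 genes (colored by complex) and for other protein-coding genes (grey), with the median of the other genes in each of 5 length bins (black lines). Most of the short genes of complexes III to V lie below the black line of their bin, which is itself below 0 for the bins under 450 nucleotides.

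Copies elsewhere in the genome bear on these counts as well. Pseudogenes named after the current symbol are annotated for 31 of the 40 genes, and copies under other names were not searched. Another gene on the same strand lies over the main transcript of 9 genes. By these criteria 6 have neither: UQCRC1, UQCRQ, CYC1, COX7A2L, ATP5F1D and ATP5ME. Of these 6, 3 fell (UQCRQ, COX7A2L and ATP5ME), with a median of -0.11. The median of the other 34 was -0.28, with 20 lower and 1 higher. The part of the different shares of multiply placed reads in these values was not tested.

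The subunits of complexes III, IV and V that mitochondrial DNA encodes had a larger median fall. In H1047R cells insulin lowered all 6 (MT-CYB of complex III, MT-CO1, MT-CO2 and MT-CO3 of complex IV, MT-ATP6 and MT-ATP8 of complex V), with a median log2 fold change of -0.65. In this comparison 9.8% of all genes tested were called lower. MT-CYB was at 1033, 1068 and 1024 CPM in H1047R insulin, against 1778, 1918 and 1805 CPM in H1047R vehicle, and at 1559, 1687 and 1644 CPM in control insulin, against 1961, 1973 and 1934 CPM in control vehicle. H1047R insulin was lowest, and control insulin lay between it and the vehicle groups (-0.82 ± 0.035, adjusted p = 1.4e-21 in H1047R cells, -0.26 ± 0.0348, adjusted p = 8.29e-07 in control cells). MT-ATP6 and MT-ATP8, which overlap each other, had log2 fold changes of -0.71 ± 0.0401 and -0.81 ± 0.0843 with insulin in H1047R cells.

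In control cells insulin lowered 4 of the 6, MT-CYB, MT-CO1, MT-CO2 and MT-ATP6, the last with -0.20 ± 0.0399, adjusted p = 0.000834. In control cells 1.15% of all genes tested were called lower. Of the interactions 3 of 6 were called, all more negative in H1047R cells (4.49% of all genes tested were called in this direction). The 3 mitochondrial genes of complex IV held 0.632% ± 0.00753 of gene counts in H1047R insulin, 0.82% ± 0.0202 in H1047R vehicle, 0.7% ± 0.0381 in control insulin and 0.832% ± 0.00584 in control vehicle (SD, n = 3 each). Per count of nuclear complex IV genes this was 5.99 ± 0.138 in H1047R insulin, 6.46 ± 0.112 in H1047R vehicle, 5.24 ± 0.266 in control insulin and 6.41 ± 0.211 in control vehicle. For complex V the same ratio was 0.281 ± 0.0062 in H1047R insulin, 0.411 ± 0.0195 in H1047R vehicle, 0.354 ± 0.0175 in control insulin and 0.445 ± 0.022 in control vehicle. Libraries with insulin were thus lower in mitochondrial relative to nuclear counts in both backgrounds, and for complex IV the lowest group was control insulin.

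**Figure D5:**
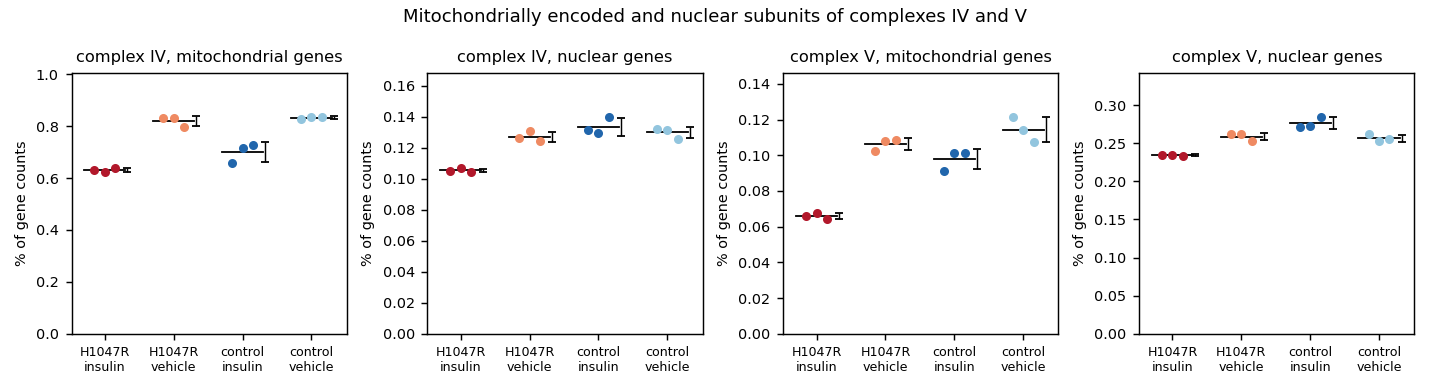
Percent of gene counts (y axis, from 0) held by the mitochondrially encoded and the nuclear subunits of complexes IV and V in every library (points), by group from H1047R insulin to control vehicle (x axis), with means (lines) and SD (bars, n = 3). The mitochondrial genes were lower in both insulin groups than in the vehicle groups, while the nuclear genes were lower in H1047R insulin than in every other library.

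Assembly factors moved in both directions, and their difference from the subunits was not tested. Of 27 factors for complex IV, 5 rose and 4 fell with insulin in H1047R cells, with a median of -0.05. In this comparison 9.85% of all genes tested were called higher and 9.8% lower. Of the genes averaging at least 5 CPM, 17.5% were called higher and 18.8% lower. TACO1, which activates the translation of MT-CO1, was at 45.2, 43.5 and 46.7 CPM in H1047R insulin and 37.9, 32.1 and 35.4 CPM in H1047R vehicle (0.36 ± 0.0567, adjusted p = 1.54e-06). HIGD1A (0.32 ± 0.0718) and the copper protein COX19 (0.32 ± 0.0635) rose, and COA5 (-0.30 ± 0.061) and COA3 (-0.26 ± 0.0557) were among those that fell. Of 8 factors for complex III, 1 fell, LYRM7, which serves the insertion of UQCRFS1 (-0.27 ± 0.0618, adjusted p = 0.000417), and none of the 4 for complex II was called by edgeR (1 was lower at an unadjusted p below 0.05) or by DESeq2. Of the 6 listed for complex V, 1 rose, TMEM70, needed for the c-ring to join (0.27 ± 0.0597, adjusted p = 0.000285).

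Among 12 other subunits and tissue isoforms, 7 were tested, and 3 fell: DMAC2L, also called factor B (-0.46 ± 0.068, adjusted p = 6.38e-07), ATP5MJ, a small complex V subunit (-0.45 ± 0.0495, adjusted p = 6.98e-10), and NDUFA4, a subunit of complex IV despite its name (-0.31 ± 0.0437, adjusted p = 2.57e-07). The muscle and testis isoforms COX4I2, COX6A2, COX7B2 and COX8C had 0 counts in every library and COX7A1 had 1 in all. Of 37 nuclear complex I genes, 13 fell, with a median of -0.23 (9.8% of all genes tested fell, and 18.8% of those averaging at least 5 CPM). Among these 13 the largest falls were those of NDUFB1 (-0.61 ± 0.066), NDUFA1 (-0.51 ± 0.0544) and NDUFA3 (-0.41 ± 0.0827).

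Of 13 other TCA cycle enzymes, 1 rose and 1 fell, with a median of -0.03 (9.85% of all genes tested rose and 9.8% fell). IDH3A was at 84.1 ± 2.89 CPM in H1047R insulin and 69.0 ± 2.53 CPM in H1047R vehicle (0.29 ± 0.0454), and MDH2 at 179 ± 6.6 CPM in H1047R insulin and 209 ± 6.9 CPM in H1047R vehicle (-0.22 ± 0.0398; SD, n = 3 each). Of 11 regulators of mitochondrial biogenesis, PPRC1, a coactivator of the PGC-1 family, rose (83.1, 77.2 and 81.6 CPM in H1047R insulin, against 59.6, 57.7 and 57.7 CPM in H1047R vehicle, log2 fold change 0.47 ± 0.0473, adjusted p = 1.18e-10) and YY1, a transcription factor, fell (-0.22 ± 0.0413, adjusted p = 3.05e-05).

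The promoters of the genes were read because many, though not all, of the subunit genes fell with insulin in H1047R cells. A further reason was that NRF1, ETS factors (with GABP, also called NRF2) and YY1 are known regulators of respiratory genes. RefSeq promoters (GRCh38.p14, 250 bases before to 50 after the start) matched 32 of the 40 genes. ATP5F1B, UQCRB, SDHC, CYC1, COX6C, ATP5MF, ATP5F1D and ATP5MC3 were not analysed here. Both strands were searched for GCATGCG (the NRF1 core), CCGGAAG (ETS) and AAGATGG (YY1). The NRF1 core nearly reads the same on both strands, so its matches can overlap by all but 1 base. It was found in 9 of the 32 (28.1%, against 4.74% of 27305 gene symbols with a promoter), the ETS motif in 15 (46.9%, against 12.2%), the YY1 motif in 9 (28.1%, against 7.11%), and any of the 3 in 23 (71.9%, against 21.5%). Of the 18 genes with a promoter that fell with insulin in H1047R cells 13 had a match, and of the other 14 genes 10 had one. The 27305 symbols were not limited to expressed or protein-coding genes, so the comparison with them is not matched for the kind of gene. A match is a run of letters and no proof of binding.

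The sequences of 5 promoters, picked after the values were known, show that the same motifs occur in genes that fell, rose or did not pass the test. CYCS rose and has 1 NRF1 core (chr7:25125211-25125510, minus strand). ATP5ME fell (-0.34 ± 0.0612, adjusted p = 1.5e-05) and holds all 3 motifs (chr4:674227-674526, minus strand). ATP5MC2 fell and has overlapping NRF1 cores on both strands (chr12:53676034-53676333, minus strand, the first of 3 listed promoters). COX7C fell and has the YY1 motif in reverse (chr5:86617691-86617990, plus strand). SDHB was not called and also holds all 3 motifs (chr1:17053983-17054282, minus strand). Each is written 5′ to 3′ along its gene, with matches in capitals.
CYCS: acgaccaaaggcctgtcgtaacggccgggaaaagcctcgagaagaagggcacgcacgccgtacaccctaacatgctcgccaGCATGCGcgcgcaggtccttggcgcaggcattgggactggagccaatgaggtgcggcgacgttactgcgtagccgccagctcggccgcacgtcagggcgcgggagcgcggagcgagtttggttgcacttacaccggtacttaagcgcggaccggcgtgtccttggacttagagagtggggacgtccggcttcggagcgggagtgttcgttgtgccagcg
ATP5ME: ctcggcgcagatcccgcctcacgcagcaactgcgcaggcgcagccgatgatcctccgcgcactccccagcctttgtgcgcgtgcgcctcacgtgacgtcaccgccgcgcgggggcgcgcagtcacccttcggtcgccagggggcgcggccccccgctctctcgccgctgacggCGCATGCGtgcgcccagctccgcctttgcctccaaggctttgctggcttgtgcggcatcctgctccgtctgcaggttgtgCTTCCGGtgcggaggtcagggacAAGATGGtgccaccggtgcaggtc
ATP5MC2: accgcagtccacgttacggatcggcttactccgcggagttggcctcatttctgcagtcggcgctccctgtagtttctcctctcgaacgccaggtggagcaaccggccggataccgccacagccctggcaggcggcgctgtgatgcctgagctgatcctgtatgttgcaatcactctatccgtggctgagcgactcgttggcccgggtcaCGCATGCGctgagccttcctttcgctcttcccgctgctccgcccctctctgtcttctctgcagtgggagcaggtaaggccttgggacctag
COX7C: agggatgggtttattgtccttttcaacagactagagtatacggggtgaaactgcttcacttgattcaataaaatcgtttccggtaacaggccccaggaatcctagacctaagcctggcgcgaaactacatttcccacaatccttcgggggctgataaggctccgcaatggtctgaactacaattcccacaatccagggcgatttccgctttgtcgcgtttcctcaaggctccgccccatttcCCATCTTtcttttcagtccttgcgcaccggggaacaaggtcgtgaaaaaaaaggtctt
SDHB: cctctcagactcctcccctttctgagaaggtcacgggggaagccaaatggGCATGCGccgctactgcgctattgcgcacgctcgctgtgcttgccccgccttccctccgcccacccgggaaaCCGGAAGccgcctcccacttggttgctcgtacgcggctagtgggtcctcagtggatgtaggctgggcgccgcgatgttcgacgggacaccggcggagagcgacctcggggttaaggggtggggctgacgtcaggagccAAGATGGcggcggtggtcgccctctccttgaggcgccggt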

How the data were processed

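RNA-seq (mRNA kit, 500 ng of total RNA) was performed by the study in 12 libraries of 12Z cells. Reads were trimmed with cutadapt and Trim Galore and aligned to hg38 with STAR, whose gene counts the authors deposited without normalization. Only uniquely placed reads are counted. Versions of these tools and the human annotation are not given in the sources used, and the methods name a mouse annotation release although the identifiers are human. Unmapped, multiply placed, unassigned and ambiguous reads (3.12 to 4.09%, 8.48 to 15.4%, 3.91 to 4.55% and 3.31 to 3.61%) stayed out of library sizes.

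Reverse-strand counts (93.5 to 93.7% of stranded counts) were kept for genes with a mean of 1 count or more per library and tested with edgeR 4.0.16 in R 4.3.3 (TMM, glmQLFit and glmQLFTest, 8 residual degrees of freedom) in 1 fit of all 12 libraries. SE values were derived from each log2 fold change and the F statistic of its test. DESeq2 1.42.0 was an alternative. Gene positions and lengths came from GENCODE release 44, which held 99.6% of the identifiers. No 2 replicates matched within counting noise (chi-square over degrees of freedom from 2.7 to 5.9). Exact permutation tests of 3 against 3 libraries cannot go below p = 0.1, so none was used. In simulated counts for insulin in H1047R cells (22298 genes), 34%, 68%, 72% and 94% of genes changed 1.2, 1.3, 1.5 and 2 times were called, with 2 false calls.

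The 40 genes, the lists of other mitochondrial genes and the comparisons were chosen with earlier results of these data known. Named genes were, in each complex, the 3 called with the largest change for insulin in H1047R cells and the 1 with the smallest, up to 10 called in other comparisons, CYCS, PIK3CA, and up to 3 called genes of each further list. A gene list is described by counts and medians, with no test of its own.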

Additional observations from a re-analysis of the deposited data

Results flagged for a closer look

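The difference between insulin and vehicle was lower in H1047R cells than in control cells for 20 of the 40 genes. This is by the interaction in edgeR at an FDR below 0.001 (4.49% of all genes tested were called in this direction). A changed response to insulin and the higher PIK3CA level in H1047R insulin cannot be told apart here. Each value that follows is the insulin effect in H1047R cells minus that in control cells, on the log2 scale. In complex II they were -0.62 for SDHA and -0.42 for SDHC. In complex III they were -0.51 for UQCRB, -0.40 for UQCRH and -0.43 for UQCRQ. Complex IV had COX7B at -0.50, COX7C at -0.49, COX7A2 at -0.44, COX8A at -0.41, COX6C at -0.35, COX6B1 at -0.32 and COX7A2L at -0.30. Complex V had ATP5MC3 at -0.47, ATP5MF at -0.46, ATP5F1E at -0.44, ATP5F1C at -0.37, ATP5PB at -0.32, ATP5MC2 at -0.32, ATP5PF at -0.28 and ATP5F1A at -0.25. Of these 20 calls, 11 held under every alternative tried.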

How the results depend on the processing

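The counts of lower genes for insulin in H1047R cells, for H1047R with insulin and for the interaction were 23, 29 and 19 with DESeq2, 22, 29 and 17 with library totals in place of TMM, 23, 30 and 18 with DESeq2 size factors in edgeR, 22, 29 and 20 without the filter, 24, 32 and 17 where 3 libraries had to reach 1 CPM, and 23, 30 and 20 with unstranded counts. Leaving out 1 library gave 19 to 24, 26 to 31 and 13 to 21, with 1 gene higher for insulin in H1047R cells in each such fit. Of the 24, 31 and 20 calls, 18, 24 and 11 were kept in every alternative. Those lost at least once for insulin in H1047R cells were ATP5MC1, ATP5MG, ATP5PF, COX4I1, COX5B and COX7A2L. No direction reversed.

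The count of 0 genes higher with insulin in control cells became 3 with DESeq2, 2 without the filter, 1 with library totals, 1 with unstranded counts and 7 at an FDR below 0.05, and 0 to 1 when 1 library was left out. The cause was not tested. The ratio of shares of counts, H1047R insulin to H1047R vehicle, became 0.909 for complex II and 0.884 for complex V with TMM scaling, and 0.910 for complex III with unstranded counts. Without 1 library it was 0.921 to 0.939 for complex II, 0.877 to 0.896 for complex III, 0.820 to 0.842 for complex IV and 0.895 to 0.910 for complex V. With the transcript length trend removed, calls over all genes for insulin in H1047R cells split into 1887 higher and 2879 lower, in place of 2242 and 2229.

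Same-numbered replicates did not deviate together (correlations -0.058 to 0.0873, and 4 of 12 libraries closest to their own number), so they were not treated as pairs. With a replicate block, 24 genes were lower and 1 higher for insulin in H1047R cells, and the other counts were 31 and 20. The block together with the length trend gave 26 lower. Counting depth limits SDHA, UQCR11 and ATP5PO most, at 5.89 to 20.96 CPM per library.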
